A study of Mus musculus with 12 samples.

Results

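The genes described here are the subunits of the receptors and the matrix proteins through which a cell holds on to the material around it. They were 12 integrin alpha subunits, 6 integrin beta subunits, 10 laminin chains, the 4 syndecans, *Cd44* and *Fn1*. All 34 were chosen by name and found by their Ensembl identifiers among the 54532 genes of each count table, by a list of names that sets no limit on any measured value. RNAseq had been performed on cultured brainstem progenitors of C57BL/6 mice, taken at postnatal days 3 to 5, that carried Nestin TVA and floxed *p53*. Tv-a is the receptor for avian RCAS virus, and in these mice the nestin promoter drives it, so infection is limited to nestin-expressing cells. There were 3 samples in each of 4 groups, infected with RCAS vectors for human *ACVR1* WT or for human *ACVR1* R206H, each given alone or together with a vector for H3.1K27M. All groups therefore shared the floxed *p53* allele and an introduced *ACVR1*, no uninfected group was analysed here, and no Cre virus is named for these samples, so whether *p53* had been recombined is not given in the sources used here. *ACVR1* encodes a type I bone morphogenetic protein receptor, R206H is an activating mutation of it, and H3.1K27M is the histone mutation that accompanies it in diffuse intrinsic pontine glioma.

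Integrins are pairs of an alpha and a beta subunit that span the membrane, and the pair sets which ligand is bound: collagens, laminins, or proteins such as fibronectin with an Arg-Gly-Asp motif. Laminins are trimers of an alpha, a beta and a gamma chain that polymerise into basement membranes. Syndecans are heparan sulfate proteoglycans that bind matrix and growth factors beside integrins, CD44 is the main receptor for hyaluronan, and fibronectin, the product of *Fn1*, is a matrix protein laid down by many migrating cells. In the neural stem cell niche, progenitors contact laminin through integrins that contain the beta subunit encoded by *Itgb1*, and CD44 is widely used as a marker of the mesenchymal state in glioma.

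Upstream sequence is shown for 5 members that carried the contrasts described below, *Itga8* and *Lamb2* for their rise with H3.1K27M, *Itgb8* for its fall, and *Itga1* and *Cd44* for their higher levels with *ACVR1* R206H. RefSeq windows on build GRCm38.p6 were matched for 23 of the 34 members, and the 250 bases before the annotated start are printed 5′ to 3′ on the strand of the gene, with each CpG dinucleotide in capitals.
*Itga8* (minus strand, chr2:12301945-12302194): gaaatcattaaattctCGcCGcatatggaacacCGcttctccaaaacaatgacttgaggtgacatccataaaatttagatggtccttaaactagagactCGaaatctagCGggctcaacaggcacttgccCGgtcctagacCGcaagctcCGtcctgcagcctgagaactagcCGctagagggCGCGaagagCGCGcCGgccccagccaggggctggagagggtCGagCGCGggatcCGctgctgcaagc
*Lamb2* (plus strand, chr9:108479612-108479861): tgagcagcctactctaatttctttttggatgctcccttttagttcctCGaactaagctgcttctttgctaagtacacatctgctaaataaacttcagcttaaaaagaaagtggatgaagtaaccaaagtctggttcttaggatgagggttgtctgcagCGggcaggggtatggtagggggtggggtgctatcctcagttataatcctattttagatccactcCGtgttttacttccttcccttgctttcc
*Itgb8* (minus strand, chr12:119238277-119238526): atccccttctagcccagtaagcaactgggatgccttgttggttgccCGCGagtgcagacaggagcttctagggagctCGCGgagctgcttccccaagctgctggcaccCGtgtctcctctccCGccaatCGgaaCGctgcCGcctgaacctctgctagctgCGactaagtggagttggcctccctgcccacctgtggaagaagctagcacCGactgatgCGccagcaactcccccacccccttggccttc
*Itga1* (minus strand, chr13:115101965-115102214): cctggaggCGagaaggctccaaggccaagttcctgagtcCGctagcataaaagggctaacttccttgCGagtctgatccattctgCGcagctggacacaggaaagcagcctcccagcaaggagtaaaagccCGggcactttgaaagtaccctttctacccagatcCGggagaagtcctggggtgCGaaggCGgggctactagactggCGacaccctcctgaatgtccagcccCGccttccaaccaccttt
*Cd44* (minus strand, chr2:102901666-102901915): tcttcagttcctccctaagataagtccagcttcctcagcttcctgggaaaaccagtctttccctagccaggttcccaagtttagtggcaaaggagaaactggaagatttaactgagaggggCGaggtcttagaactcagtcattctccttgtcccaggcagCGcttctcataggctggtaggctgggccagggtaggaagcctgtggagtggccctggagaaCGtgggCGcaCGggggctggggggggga
The *Itga8* window held 18 CpG dinucleotides, *Itgb8* 12, *Itga1* 10, *Cd44* 5 and *Lamb2* 3, so the members that rose and the member that fell did not share one kind of upstream sequence by this measure. Over the 23 matched members the median was 12, with a range from 0 (*Lama2*) to 32 (*Sdc3*), and the median over all 32851 windows was 6. The E-box CAGGTG, searched on both strands, was present in 6 of the 23 member windows (*Itga3*, *Itga9*, *Itga11*, *Itgb5*, *Itgb8* and *Lama5*) and in 17.2% of all windows. The palindrome GGCGCC, the letters of a binding site of SMAD1 and SMAD5, which act downstream of *ACVR1*, was present in 3 (*Itgb1*, *Lama5* and *Lamb1*) and in 9.59% of all windows. *Lama5* alone held both, and a match or its absence in such a window is a description only. Some windows lay inside the gene as the GENCODE annotation starts it, by 105002 bases for *Itga9*, 94295 for *Lamb3*, 2816 for *Lama2*, 699 for *Sdc4*, 526 for *Itgb8* and 126 for *Lamb2*. The lowest CpG number and the CAGGTG matches of *Itga9* and *Itgb8* therefore come from windows away from that start.

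Total counts ran from 19315020 to 26456257 per sample. The 3 *ACVR1* WT samples stood apart from one another, with a common biological coefficient of variation of 0.275 against 0.0453 to 0.0594 in the other groups. Replicate 1 of this group held the lowest summed level of 6 astrocyte markers, at 2631 CPM (counts per 1000000 of the scaled library total) against 7657 and 11936 in replicates 2 and 3. Replicates 2 and 3 stood apart as well. Their 6 neuron markers summed to 124 and 164 CPM against 27.3 in replicate 1 and at most 52.1 elsewhere, and their 9 microglia markers to 23.7 and 36.4 CPM against 6.07 and at most 14.04. *Nes*, which encodes nestin, measured 407, 132 and 72.97 CPM in replicates 1, 2 and 3 of this group, against 235 to 335 in the other groups. Of 32 members in the fit of all samples, 12 differed by over 2-fold between the highest and the lowest *ACVR1* WT sample (37.5%, against 19.5% of all genes tested), while 1 member did so in each other group. Counts of members that involve this group are therefore given with and without replicate 1, and the members called without it are named. Calls without replicate 1 rest on replicates 2 and 3, and the part of their marker content in them was not tested. The RNA labelled *Acvr1* measured 53.5, 46.4 and 52.7 CPM with WT, 114, 81.9 and 85.8 with R206H, 169.9, 162 and 364 with WT and H3.1K27M and 999, 561 and 1057 with R206H and H3.1K27M. Reads of the mouse gene and of the vector cannot be told apart here, and since the R206H samples had more of this RNA in both backgrounds, the mutation and the receptor level cannot be told apart either. The H3.1K27M samples also had more of it than the matching samples without H3.1K27M, so H3.1K27M and the receptor level cannot be told apart in the comparisons of H3.1K27M. *Id1*, a direct target of the pathway, measured 12.6, 11.9 and 21.9, 40.3, 34.2 and 32.3, 13.6, 12.4 and 13.8 and 103, 96.3 and 118 CPM in the same order of groups. The 8 neural progenitor markers were all detected, with summed levels from 6097 to 8121 CPM over the 12 samples. In bulk RNA, fewer cells of a type and less RNA per cell cannot be told apart, and the labels do not say whether replicates were separate cultures, so p-values measure the spread between these samples only.

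Per kilobase of exon, the levels of the members ranged over several orders of magnitude. *Sdc3* led with a median of 311 CPM per kilobase over the 12 samples (251 to 375), followed by *Itgb1* with 173 (158 to 203). The ranges of these genes over the samples did not overlap. Next came *Itgb5* (62.3), *Itgav* (53.1) and *Itgb8* (38.9), whose ranges overlapped with one another. *Lamb2* led the laminins with 27.2 CPM per kilobase, and *Lamc1* followed with 18.3. *Cd44* stood at 23.5 and *Fn1* at 10.9. The laminin alpha chains were lower, with *Lama5* at 7.55, *Lama4* at 1.18 and *Lama3* at 0.171.

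**Figure D1:**
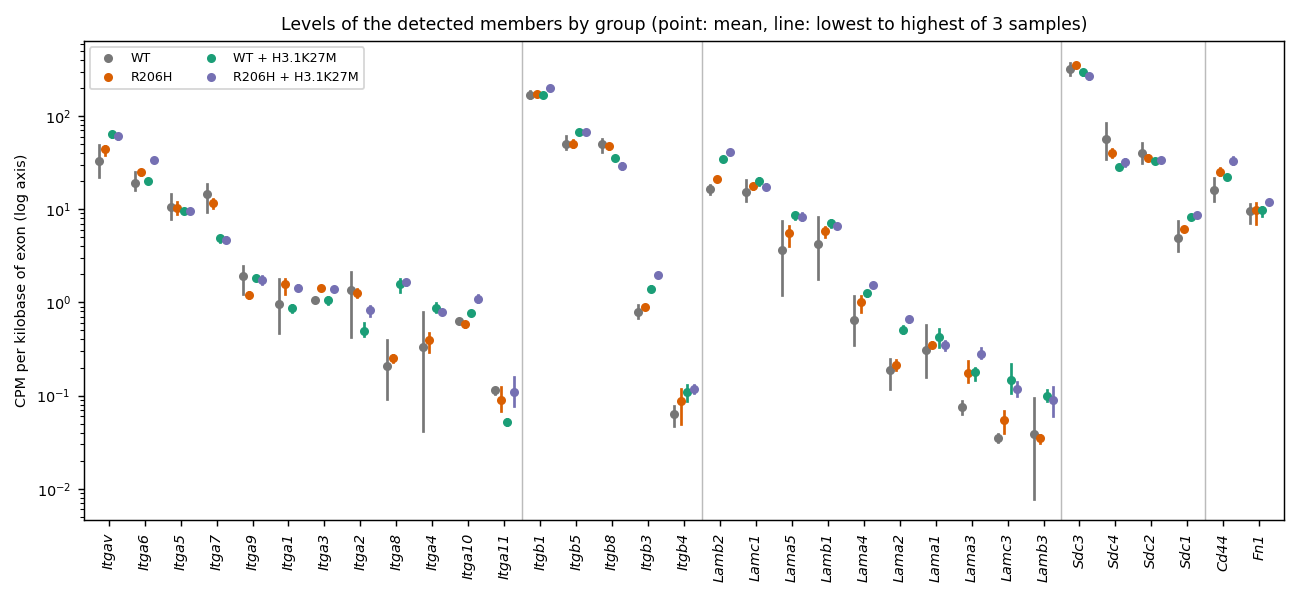
Levels of the 33 members with any count, in CPM per kilobase of exon on a log axis, with 1 column per gene grouped by class and ordered within it by the median. Points are means of 3 samples and lines run from the lowest to the highest sample. *Sdc3* and *Itgb1* lie highest, and the long grey lines of the WT group at *Lama5*, *Lamb1* and *Itga4* show its wide spread.

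With H3.1K27M present, the R206H samples had higher RNA than the WT samples for the collagen-binding subunits *Itga1*, *Itga2* and *Itga10*, the laminin-binding subunits *Itga3* and *Itga6*, their common partner *Itgb1*, and for *Cd44* and *Fn1*. The laminin-binding *Itga7* (-0.06, adjusted p = 0.59) and *Itgb4* (0.11, adjusted p = 0.82) did not pass, and the collagen-binding *Itga11* had too few counts to be tested. Of 32 members tested, 16 passed an adjusted p of 0.05, 14 higher and 2 lower. Of all 15672 genes tested, 20.3% passed, 11.4% higher and 8.95% lower. The median log2 fold change was 0.08 over the members and 0.00 over all genes tested. The samples of the 2 groups did not overlap for 15 members (36.8% of all genes tested), and a comparison of 3 against 3 cannot reach a two-sided exact p under 0.1. Without replicate 3 of the samples with both mutations, 10 members passed. A single fit of all 12 samples, whose spread included that of the *ACVR1* WT group, left 2 of the 16 past the threshold, *Itga6* and *Itga10*. Its adjusted p for *Cd44* was 0.097, for *Itga1* 0.43 and for *Fn1* 0.54. How many of all genes these refits called is not given here, so their counts describe the members only.

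Without H3.1K27M, 0 of 31 members passed the threshold between R206H and WT in edgeR, as did 0.00% of all genes tested, and DESeq2 called 0 members among 26 genes. At an unadjusted p under 0.05 there were 5 members, against 534 of 15066 genes. These were *Lama3*, *Lamb2*, *Itga3* and *Cd44*, which were higher in every R206H sample than in any WT sample, and *Itga9*, whose groups overlapped. Groups that did not overlap were found for these 4 members, all with R206H higher, and for 9.61% of all genes tested, 4.37% with R206H higher. The median log2 fold change was 0.20 over the members and -0.01 over all genes tested. Without *ACVR1* WT replicate 1, 17 of 31 members passed, 14 higher and 3 lower, where 23.1% of all genes tested did. The higher ones were *Itga1*, *Itga4*, *Itga6*, *Itga8*, *Itgav*, *Lama1*, *Lama3*, *Lama4*, *Lama5*, *Lamb1*, *Lamb2*, *Lamc1*, *Sdc1* and *Cd44*, and the lower ones *Itga7*, *Itga9* and *Sdc4*. With voom and sample weights on all samples it was 18 members and 24.4% of all genes tested. Of the 16 members called with H3.1K27M, 12 had the same sign without it, in samples that the first comparison did not use, as had 57.9% of all genes called there. The others were *Itga2*, *Itga10*, *Lamc1* and *Sdc4*.

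Samples with and without H3.1K27M were compared in each background. In the R206H background, 23 of 32 passed, 18 higher and 5 lower, where 56.5% of all genes tested passed, 29.1% higher and 27.4% lower. In the WT background, 8 of 31 passed, 6 higher and 2 lower, where 23.0% of all genes tested did, 12.6% higher and 10.4% lower. All 8 were called in the same direction in the R206H background, which uses other samples, and they made up 8 of its 23 calls. Both counts include *Lamc3*, which passed the filter on low counts only through the H3.1K27M samples and so had to differ. The share of all genes called alike in both backgrounds is not given here, so this agreement describes the members only. The groups did not overlap for 23 members in the R206H background (63.1% of all genes tested) and for 17 in the WT background (45.2%). The median log2 fold change of the members was 0.42 with R206H and 0.44 with WT, where that of all genes tested was -0.00 and -0.02. Of the 23 members called with R206H, 22 had the same sign with WT, as had 91.7% of all genes called there, and the other was *Itga9*. Without *ACVR1* WT replicate 1 the WT background gave 23 calls, 18 higher and 5 lower, where 52.6% of all genes tested passed. These were the 8 members called on all samples together with *Itga1*, *Itga4*, *Itga6*, *Itgav*, *Itgb5*, *Lama1*, *Lama4*, *Lama5*, *Lamb1*, *Lamc1*, *Sdc1* and *Cd44*, which were higher, and *Itga2*, *Sdc2* and *Sdc4*, which were lower. On all its samples DESeq2 called 13 members (29.4% of all genes tested) and voom with sample weights 26 (60.0%). Leaving out any other sample gave between 1 and 6 calls, with 1 without replicate 3 and 2 without replicate 2 of the WT samples with H3.1K27M, 5 without their replicate 1, and 2 without WT replicate 2. The single fit of all samples called 15 members in the WT background, and 12 of the 23 calls in the R206H background remained in it. Those lost were *Itga2*, *Itga4*, *Itga9*, *Itgav*, *Itgb1*, *Lama4*, *Lama5*, *Lamb1*, *Sdc1*, *Sdc4* and *Cd44* (adjusted p from 0.057 to 0.73). Shares of all genes are not given for this fit or for leaving out the other samples, so those counts describe the members only. Each group enters 2 of the 4 comparisons, so those that share a group are not independent.

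**Figure D2:**
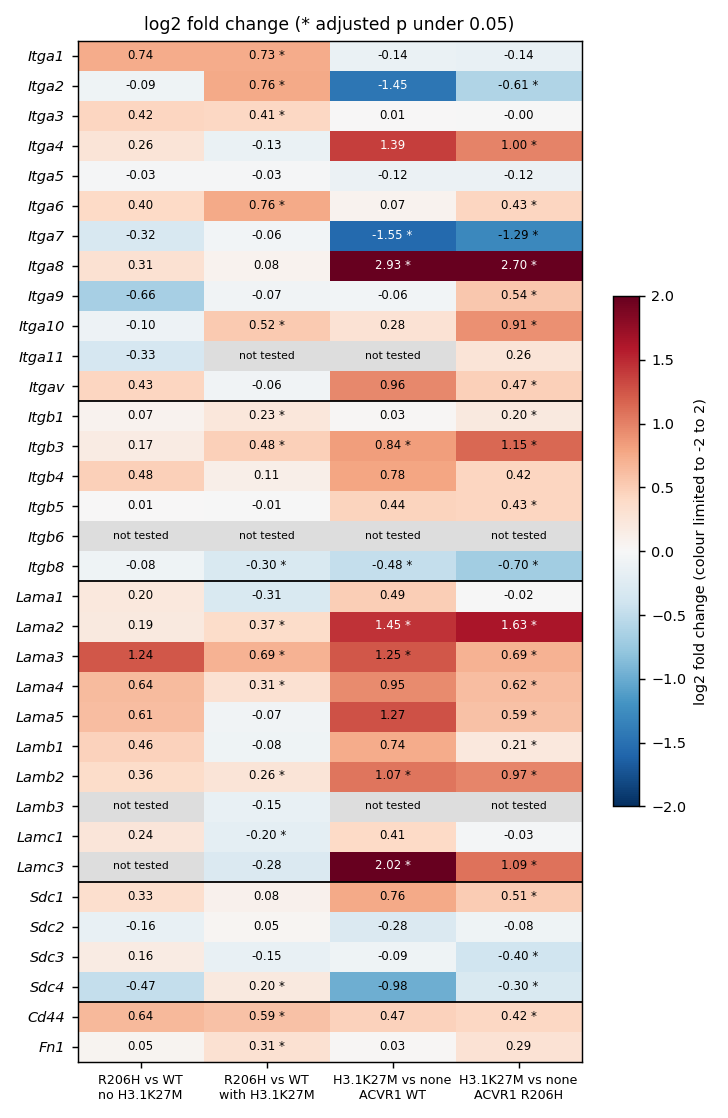
log2 fold change of each member in the 4 comparisons, printed in each cell and shown as colour limited to -2 and 2, with an asterisk where the edgeR adjusted p was under 0.05 and grey where the gene was not tested. The R206H column without H3.1K27M holds no asterisk, and the H3.1K27M columns hold 8 and 23, including the highest value, 2.93 for *Itga8*.

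Among the integrin alpha subunits, 5 of 11 tested were higher and 0 lower with R206H in the presence of H3.1K27M, where 11.4% and 8.95% of all genes tested were. H3.1K27M raised 6 and lowered 2 of 12 in the R206H background (29.1% and 27.4% of all genes tested), and raised 1 and lowered 1 of 11 in the WT background (12.6% and 10.4%), or 5 and 2 without WT replicate 1, where 52.6% of all genes tested passed. With R206H in the absence of H3.1K27M 0 of 12 were called, or 5 higher and 2 lower without WT replicate 1 (23.1% of all genes tested). In the lists of values that follow, samples are in the order of replicates 1, 2 and 3, and changes are log2 fold changes ± SE.

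The subunit *Itga8*, which pairs with *Itgb1* and binds nephronectin, had the highest change of any member. *Itga8* measured 2.89, 0.986 and 0.684 CPM in the WT samples, 2.0003, 1.71 and 1.94 in the R206H samples, 9.57, 12.2 and 13.1 in the WT samples with H3.1K27M and 12.5, 11.3 and 12.8 in the R206H samples with H3.1K27M. Every H3.1K27M sample lay above every sample without it. The change was 2.93 ± 0.50 (edgeR adjusted p = 0.011) in the WT background and 2.70 ± 0.12 (edgeR adjusted p = 9.1e-09) in the R206H background, and R206H changed it by 0.08 with H3.1K27M (adjusted p = 0.68). In the WT background the call was lost without WT replicate 2 (adjusted p = 0.052) or without replicate 2 or 3 of the H3.1K27M samples (0.053 and 0.056).

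*Itga7*, a laminin-binding subunit best known from muscle and also found on glial progenitors, moved the opposite way. *Itga7* measured 76.2, 125 and 152 CPM in the WT samples, 82.4, 103 and 96.7 in the R206H samples, 41.5, 42.1 and 36.1 in the WT samples with H3.1K27M and 40.7, 36.9 and 36.9 in the R206H samples with H3.1K27M. The H3.1K27M samples lay between 36.1 and 42.1 CPM, under every other sample. Its changes were -1.55 ± 0.25 (edgeR adjusted p = 0.0087) with WT and -1.29 ± 0.08 (edgeR adjusted p = 6.1e-08) with R206H. Without replicate 3 of the WT samples with H3.1K27M the first had an adjusted p of 0.054.

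*Itga6*, the laminin-binding subunit used to enrich neural and glioma stem cells, was highest where both mutations were present. *Itga6* measured 226, 148 and 147 CPM in the WT samples, 240.2, 209.8 and 230.4 in the R206H samples, 177, 186 and 179 in the WT samples with H3.1K27M and 301, 314 and 297 in the R206H samples with H3.1K27M. The 3 samples with both mutations exceeded the other 9. R206H changed it by 0.76 ± 0.04 (edgeR adjusted p = 7.8e-08) with H3.1K27M, a call that the fit of all 12 samples kept (adjusted p = 0.015), and H3.1K27M changed it by 0.43 ± 0.05 (edgeR adjusted p = 2.1e-05) with R206H. With WT, H3.1K27M changed it by 0.07 (adjusted p = 0.81), a value that rested on WT replicate 1 and was 0.30 (adjusted p = 0.0018) without it. The change with R206H in the absence of H3.1K27M, 0.40 ± 0.18 (edgeR adjusted p = 0.94), was 0.63 (adjusted p = 0.0023) without that sample. On all samples the interaction of the mutations, which tests the difference between these effects, was 0.37 ± 0.19 (edgeR adjusted p = 0.68). *Itga3*, another laminin-binding subunit, was low. *Itga3* measured 5.83, 6.17 and 6.16 CPM in the WT samples, 7.901, 7.81 and 8.47 in the R206H samples, 5.48, 6.09 and 6.57 in the WT samples with H3.1K27M and 7.64, 8.12 and 8.19 in the R206H samples with H3.1K27M. The R206H samples exceeded the WT samples in both backgrounds, by 0.41 ± 0.10 (edgeR adjusted p = 0.015) with H3.1K27M and 0.42 ± 0.11 (edgeR adjusted p = 0.94) without it. The first call was lost without WT replicate 1 or 2 with H3.1K27M, or R206H replicate 3 with H3.1K27M (adjusted p = 0.055, 0.052 and 0.061).

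The collagen-binding subunits are *Itga1*, *Itga2*, *Itga10* and *Itga11*, and the first 3 of these were higher with R206H when H3.1K27M was present. *Itga1* measured 33.2, 11.3 and 8.797 CPM in the WT samples, 32.5, 22.6 and 33.4 in the R206H samples, 14.5, 15.9 and 17.6 in the WT samples with H3.1K27M and 26.1, 25.2 and 28.4 in the R206H samples with H3.1K27M. WT replicate 1 reached the level of the R206H samples, and the other WT replicates were under every R206H sample. With H3.1K27M the groups did not overlap, and R206H changed *Itga1* by 0.73 ± 0.08 (edgeR adjusted p = 3.7e-05). Without H3.1K27M the change was 0.74 ± 0.50 (edgeR adjusted p = 0.94), and 1.57 (adjusted p = 0.0031) without WT replicate 1. The change with H3.1K27M in the WT background went from -0.14 ± 0.49 (edgeR adjusted p = 0.86) to 0.69 (adjusted p = 0.0041) when that sample was left out. *Itga2* measured 3.03, 11.05 and 15.1 CPM in the WT samples, 8.05, 9.88 and 9.298 in the R206H samples, 3.11, 4.33 and 3.17 in the WT samples with H3.1K27M and 6.598, 5.14 and 5.98 in the R206H samples with H3.1K27M. *Itga2* was higher with R206H in the H3.1K27M background (0.76 ± 0.15, edgeR adjusted p = 0.004) and lower with H3.1K27M in the R206H background (-0.61 ± 0.12, edgeR adjusted p = 0.0012). Its fall with H3.1K27M in the WT background, -1.45 ± 0.55 (edgeR adjusted p = 0.1), did not pass in edgeR, and was -1.88 (adjusted p = 0.00011) without WT replicate 1.

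*Itga10* measured 3.08, 3.48 and 3.27 CPM in the WT samples, 3.101, 2.84 and 3.15 in the R206H samples, 3.93, 3.95 and 3.999 in the WT samples with H3.1K27M and 5.22, 5.45 and 6.28 in the R206H samples with H3.1K27M. This gene, low in all samples, was highest with both mutations, by 0.52 ± 0.12 (edgeR adjusted p = 0.0091) for R206H with H3.1K27M and 0.91 ± 0.14 (edgeR adjusted p = 0.00014) for H3.1K27M with R206H. Leaving out replicate 3 of the samples with both mutations ended the first call (adjusted p = 0.055). Without R206H, H3.1K27M changed it by 0.28 (adjusted p = 0.18). Its interaction, 0.63, had the lowest unadjusted p of the members, 0.0028, and an adjusted p of 0.36. It passed without WT replicate 1 (0.68, adjusted p = 0.018) and with voom and sample weights (adjusted p = 0.0085).

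*Itgav*, the partner of *Itgb1*, *Itgb3*, *Itgb5*, *Itgb6* and *Itgb8* in receptors of the Arg-Gly-Asp motif, was the most abundant alpha subunit per length. *Itgav* measured 527, 291 and 239.9 CPM in the WT samples, 515, 409.5 and 488 in the R206H samples, 635, 688 and 722 in the WT samples with H3.1K27M and 614, 677 and 656 in the R206H samples with H3.1K27M. WT replicate 1 lay near the R206H samples and above the other WT replicates, and the H3.1K27M samples were above all others. H3.1K27M changed it by 0.47 ± 0.07 (edgeR adjusted p = 0.00018) with R206H and by 0.96 ± 0.29 (edgeR adjusted p = 0.057) with WT. Without WT replicate 1 the latter was 1.37 (adjusted p = 1.9e-05). *Itga4* and *Itga9* encode related subunits that bind fibronectin or VCAM1 and tenascin. *Itga4* measured 11.1, 2.33 and 0.586 CPM in the WT samples, 6.05, 4.14 and 6.54 in the R206H samples, 11.5, 11.1 and 13.9 in the WT samples with H3.1K27M and 11.2, 11.2 and 10.9 in the R206H samples with H3.1K27M. WT replicates 2 and 3 were far under replicate 1, and H3.1K27M raised *Itga4* by 1.00 ± 0.14 (edgeR adjusted p = 6.7e-05) with R206H. With WT the change was 1.39 ± 0.86 (edgeR adjusted p = 0.28), and 3.09 (adjusted p = 0.00025) without WT replicate 1. *Itga9* measured 9.58, 15.5 and 18.9 CPM in the WT samples, 8.55, 9.82 and 9.298 in the R206H samples, 13.7, 14.4 and 13.8 in the WT samples with H3.1K27M and 12.2, 14.9 and 12.7 in the R206H samples with H3.1K27M. *Itga9* rose with H3.1K27M in the R206H background (0.54 ± 0.10, edgeR adjusted p = 0.00075) and changed by -0.06 ± 0.24 (edgeR adjusted p = 0.89) in the WT background.

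Of the integrin beta subunits, *Itgb1* is the common partner, and *Itgb6* had 0 counts in all 12 samples, which allows at most 0.112 to 0.156 CPM per sample (3 counts of the scaled total, counting error only). With R206H and H3.1K27M against WT and H3.1K27M, 2 of 5 tested rose and 1 fell (11.4% and 8.95% of all genes tested). With H3.1K27M, 3 rose and 1 fell in the R206H background (29.1% and 27.4%), and 1 rose and 1 fell in the WT background (12.6% and 10.4%), or 2 and 1 without WT replicate 1 (52.6% in either direction). With R206H in the absence of H3.1K27M 0 of 5 were called, also without WT replicate 1 (23.1% of all genes tested). *Itgb1* measured 761, 648 and 643 CPM in the WT samples, 718, 689 and 729 in the R206H samples, 693, 691 and 689 in the WT samples with H3.1K27M and 793, 805 and 828 in the R206H samples with H3.1K27M. *Itgb1* was highest with both mutations, by a small change of 0.23 ± 0.03 (edgeR adjusted p = 0.00044) for R206H and 0.20 ± 0.04 (edgeR adjusted p = 0.0018) for H3.1K27M, and WT replicate 1 without H3.1K27M lay close to that level. The fit of all samples did not keep these calls (adjusted p = 0.14 and 0.061).

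*Itgb3*, which forms the vitronectin receptor with *Itgav*, rose in steps. *Itgb3* measured 4.504, 3.99 and 5.52 CPM in the WT samples, 5.001, 5.12 and 5.57 in the R206H samples, 8.39, 8.76 and 7.799 in the WT samples with H3.1K27M and 12.3, 11.2 and 10.99 in the R206H samples with H3.1K27M. The samples without H3.1K27M lay at or under 5.57 CPM, the WT samples with H3.1K27M above them, and the samples with both mutations above those. H3.1K27M changed *Itgb3* by 0.84 ± 0.16 (edgeR adjusted p = 0.015) with WT and 1.15 ± 0.10 (edgeR adjusted p = 1.6e-06) with R206H. R206H changed it by 0.48 ± 0.09 (edgeR adjusted p = 0.0023) with H3.1K27M and by 0.17 ± 0.17 (edgeR adjusted p = 0.94) without it. The call in the WT background was lost in each refit without WT replicate 2 or without any 1 of the H3.1K27M samples (adjusted p from 0.058 to 0.077).

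*Itgb8*, which with *Itgav* activates latent transforming growth factor beta and is known from radial glia and neural progenitors, fell in the same order. *Itgb8* measured 451, 627 and 587 CPM in the WT samples, 519, 559.8 and 485 in the R206H samples, 370.0, 410.5 and 400.3 in the WT samples with H3.1K27M and 314, 345 and 296 in the R206H samples with H3.1K27M. The samples with both mutations were the lowest and did not overlap with any other group. H3.1K27M changed it by -0.48 ± 0.14 (edgeR adjusted p = 0.049) with WT and -0.70 ± 0.06 (edgeR adjusted p = 2.1e-06) with R206H, and R206H by -0.30 ± 0.06 (edgeR adjusted p = 0.0022) with H3.1K27M. The WT call, close to the threshold, was lost without any 1 sample other than WT replicate 1 (adjusted p from 0.11 to 0.17). *Itgb5*, a further partner of *Itgav*, had a smaller rise. *Itgb5* measured 215, 157 and 166 CPM in the WT samples, 177, 164 and 196 in the R206H samples, 243, 254 and 227 in the WT samples with H3.1K27M and 241, 233 and 243 in the R206H samples with H3.1K27M. The H3.1K27M samples exceeded all others, by 0.43 ± 0.06 (edgeR adjusted p = 6.1e-05) with R206H and 0.44 ± 0.13 (edgeR adjusted p = 0.056) with WT, and the latter was 0.59 (adjusted p = 0.00018) without WT replicate 1.

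**Figure D3:**
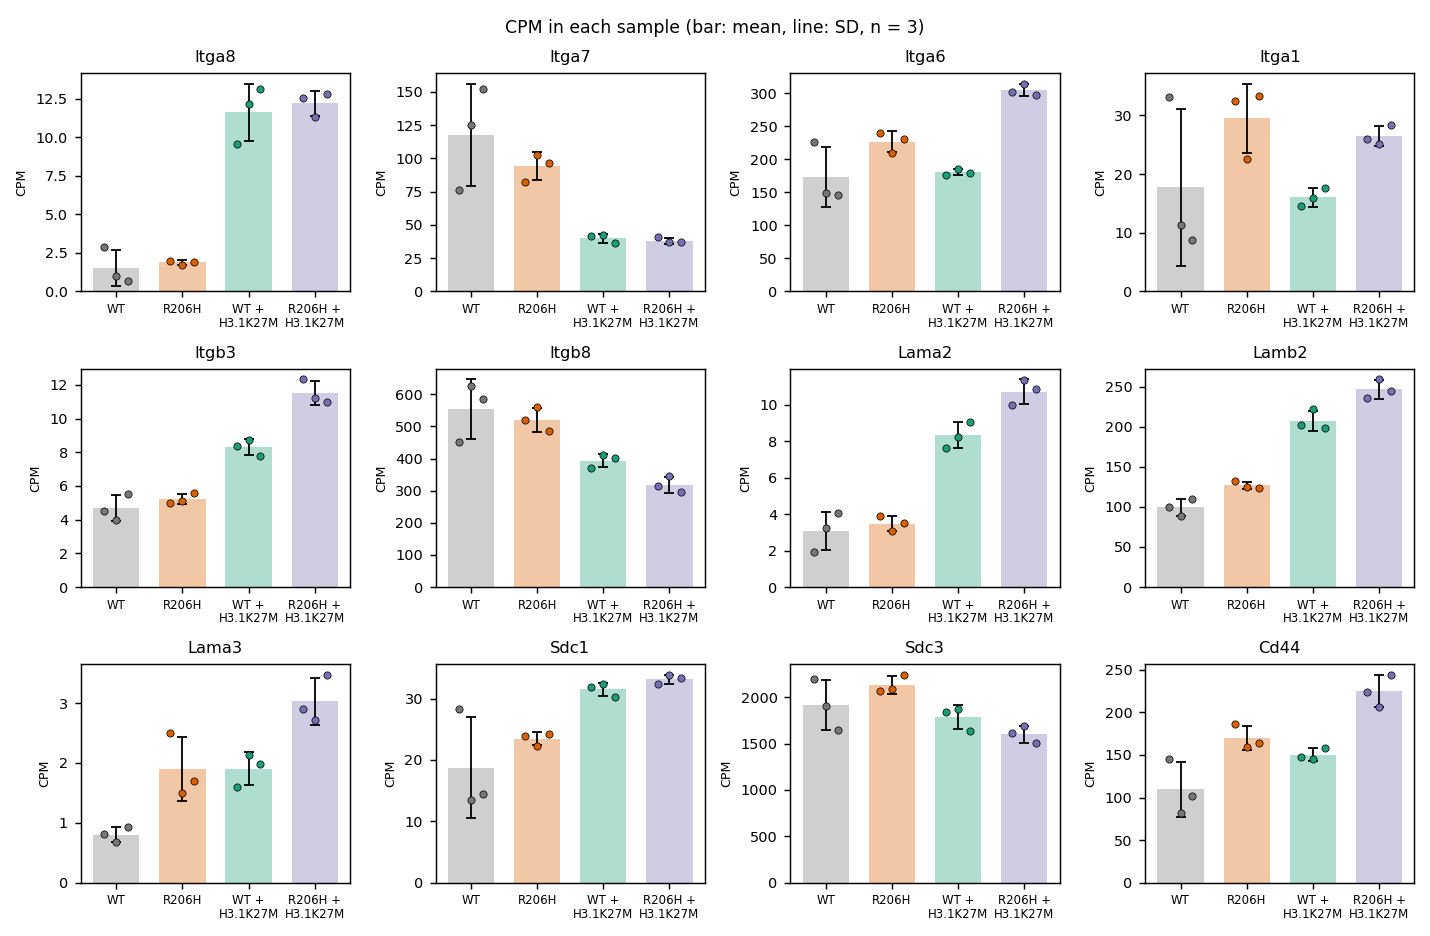
CPM of 12 members in each sample, with 1 panel per gene, points for the 3 samples of each group, bars for the mean and lines for the SD. *Itga8*, *Itgb3*, *Lama2* and *Lamb2* are higher in each H3.1K27M sample than in any sample without it, and *Itga7* and *Itgb8* are lower.

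Laminin chains rose with H3.1K27M in 7 of 9 tests with R206H and in 4 of 9 with WT, and none of the 9 fell past the threshold, where 29.1% and 12.6% of all genes tested rose. Without WT replicate 1 all 9 tested rose with WT, where 4157 of 15432 genes tested rose. These counts include *Lamc3*, whose passage of the filter on low counts fixed its direction. With R206H in the absence of H3.1K27M 0 of 8 chains were called on all samples. Without WT replicate 1 that comparison had 7 higher and 0 lower, where 1819 of 15087 genes tested were higher. Without that replicate 5 of 9 chains were lower in the interaction, where 2016 of 15459 genes tested were. With R206H and H3.1K27M against WT and H3.1K27M, 4 of 10 rose and 1 fell (11.4% and 8.95% of all genes tested). *Lamb2*, the beta chain of synaptic and vascular basement membranes and the most abundant laminin chain per length here, gave the clearest separation. *Lamb2* measured 99.4, 89.3 and 110.1 CPM in the WT samples, 132, 125 and 124 in the R206H samples, 202, 222 and 199 in the WT samples with H3.1K27M and 236, 259.7 and 245 in the R206H samples with H3.1K27M. The WT samples were lowest, the R206H samples next, and both H3.1K27M groups above them. H3.1K27M changed *Lamb2* by 1.07 ± 0.10 (edgeR adjusted p = 0.0018) with WT and 0.97 ± 0.05 (edgeR adjusted p = 1.3e-08) with R206H, and R206H changed it by 0.26 ± 0.05 (edgeR adjusted p = 0.0029) with H3.1K27M and 0.36 ± 0.09 (edgeR adjusted p = 0.94) without it. Its calls with H3.1K27M held in every refit that left out 1 sample.

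*Lama2*, the alpha chain of muscle and nerve basement membranes and of the parenchymal one around brain vessels, was low and rose with H3.1K27M. *Lama2* measured 1.94, 3.22 and 4.06 CPM in the WT samples, 3.901, 3.05 and 3.49 in the R206H samples, 7.65, 8.23 and 9.07 in the WT samples with H3.1K27M and 9.97, 11.3 and 10.8 in the R206H samples with H3.1K27M. Samples with H3.1K27M had the higher values without overlap. The change was 1.45 ± 0.27 (edgeR adjusted p = 0.014) with WT and 1.63 ± 0.12 (edgeR adjusted p = 3.4e-07) with R206H, and R206H added 0.37 ± 0.10 (edgeR adjusted p = 0.016) with H3.1K27M. The WT call had adjusted p from 0.056 to 0.066 without WT replicate 2 or any 1 H3.1K27M sample. The R206H call had 0.055 to 0.062 without WT replicate 1 or 2 or R206H replicate 3, all with H3.1K27M.

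*Lama3*, an alpha chain of epithelial basement membranes, had few counts, between 13 and 93 in a sample. *Lama3* measured 0.806, 0.674 and 0.929 CPM in the WT samples, 2.5004, 1.4995 and 1.69 in the R206H samples, 1.595, 2.14 and 1.98 in the WT samples with H3.1K27M and 2.896, 2.72 and 3.48 in the R206H samples with H3.1K27M. The WT samples were under all others. H3.1K27M changed it by 1.25 ± 0.22 (edgeR adjusted p = 0.013) with WT and 0.69 ± 0.21 (edgeR adjusted p = 0.016) with R206H. R206H changed it by 0.69 ± 0.18 (edgeR adjusted p = 0.018) with H3.1K27M and 1.24 ± 0.28 (edgeR adjusted p = 0.94) without it. The call for H3.1K27M with WT was lost without WT replicate 2 (adjusted p = 0.056) or replicate 2 or 3 of the H3.1K27M samples (0.064 and 0.063). That with R206H was lost without R206H replicate 2 or 3 (0.058 and 0.061) or replicate 3 of the samples with both mutations (0.073). The call for R206H was lost without the last of these (0.095) or without replicate 1 of the WT samples with H3.1K27M (0.065).

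*Lama4* and *Lama5* are the alpha chains of vascular laminins, and *Lama5* is also found in the neural stem cell niche. *Lama4* measured 14.3, 5.08 and 4.203 CPM in the WT samples, 14.2, 9.57 and 12.8 in the R206H samples, 14.2, 15.2 and 15.9 in the WT samples with H3.1K27M and 19.2, 17.8 and 19.03 in the R206H samples with H3.1K27M. In WT, replicate 1 was at the level of the R206H samples and the others under it. *Lama4* changed by 0.62 ± 0.12 (edgeR adjusted p = 0.00065) with H3.1K27M in the R206H background and by 0.31 ± 0.07 (edgeR adjusted p = 0.0082) with R206H in the H3.1K27M background. With H3.1K27M in the WT background it changed by 0.95 ± 0.45 (edgeR adjusted p = 0.18), and by 1.71 (adjusted p = 2.6e-05) without WT replicate 1. *Lama5* measured 85.7, 24.2 and 13.7 CPM in the WT samples, 74.5, 46.4 and 66.97 in the R206H samples, 89.2, 103 and 105 in the WT samples with H3.1K27M and 90.4, 104 and 86.2 in the R206H samples with H3.1K27M. WT replicate 1 was at the level of the H3.1K27M samples, and WT replicates 2 and 3 were under every sample of the other groups. *Lama5* changed by 0.59 ± 0.13 (edgeR adjusted p = 0.0023) with H3.1K27M in the R206H background and by 1.27 ± 0.63 (edgeR adjusted p = 0.19) in the WT background, the latter 2.40 (adjusted p = 4e-05) without WT replicate 1.

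*Lamb1* and *Lamc1* are the beta and gamma chains of most laminins of the embryo. *Lamb1* measured 81.02, 28.01 and 17.7 CPM in the WT samples, 63.3, 49.4 and 60.6 in the R206H samples, 64.6, 70.2 and 76.01 in the WT samples with H3.1K27M and 62.99, 67.9 and 67.6 in the R206H samples with H3.1K27M. The change of *Lamb1* with H3.1K27M in the R206H background was 0.21 ± 0.08 (edgeR adjusted p = 0.042), the groups overlapped, and voom with sample weights gave an adjusted p of 0.07. Without R206H replicate 2 it was 0.12, and without replicate 2 or 3 of the samples with both mutations 0.11 and 0.12. In the WT background the change was 0.74 ± 0.52 (edgeR adjusted p = 0.35), and 1.63 (adjusted p = 0.00012) without WT replicate 1. *Lamc1* measured 169.9, 106 and 102 CPM in the WT samples, 155, 137 and 152 in the R206H samples, 150.2, 177 and 169 in the WT samples with H3.1K27M and 137, 154 and 139.6 in the R206H samples with H3.1K27M. With H3.1K27M, R206H lowered *Lamc1* by a small and overlapping amount, -0.20 ± 0.06 (edgeR adjusted p = 0.035). That call was lost without WT replicate 2 or 3 or R206H replicate 1 or 3, all with H3.1K27M (adjusted p from 0.09 to 0.15). With H3.1K27M in the WT background *Lamc1* changed by 0.41 ± 0.21 (edgeR adjusted p = 0.2), and by 0.68 (adjusted p = 0.0002) without WT replicate 1.

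*Lamc3*, a gamma chain described in nerves and the retina, was near the limit of detection. *Lamc3* measured 0.237, 0.207 and 0.195 CPM in the WT samples, 0.3501, 0.414 and 0.242 in the R206H samples, 0.654, 1.33 and 0.673 in the WT samples with H3.1K27M and 0.854, 0.703 and 0.598 in the R206H samples with H3.1K27M. Its counts were 4 to 8 without H3.1K27M and 16 to 28 with it, and it passed the filter on low counts only through the H3.1K27M samples, so that it had to differ to be tested in those comparisons. Its changes were 2.02 ± 0.42 (edgeR adjusted p = 0.02) and 1.09 ± 0.35 (edgeR adjusted p = 0.018). DESeq2 did not call the second (adjusted p = 0.096), nor did edgeR without R206H replicate 3 (0.069). The first was lost without WT replicate 2 or 3 or replicate 3 of the H3.1K27M samples (0.075, 0.054 and 0.053).

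**Figure D4:**
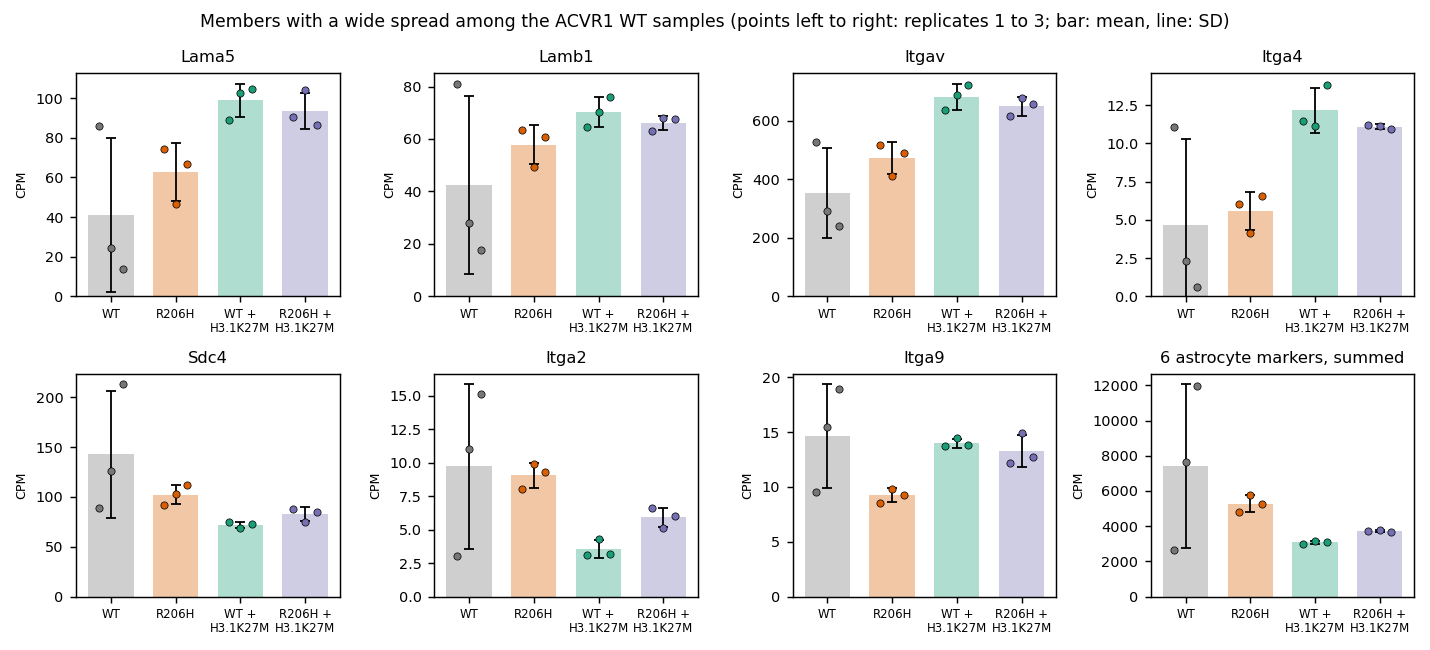
CPM in each sample for 7 members with a wide spread in the *ACVR1* WT group and for the summed 6 astrocyte markers, with points from left to right for replicates 1 to 3, bars for the mean and lines for the SD. In WT, *Lama5*, *Lamb1*, *Itgav* and *Itga4* are highest in replicate 1, where the astrocyte markers are lowest, and *Sdc4*, *Itga2* and *Itga9* are highest in replicate 3.

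Syndecans moved in different directions. H3.1K27M raised 1 and lowered 2 of 4 in the R206H background (29.1% and 27.4% of all genes tested) and called 0 in the WT background (23.0%), or 1 higher and 2 lower without WT replicate 1 (52.6%), and R206H raised 1 in the presence of H3.1K27M (11.4%). With R206H in the absence of H3.1K27M 0 of 4 were called, or 1 higher and 1 lower without WT replicate 1 (23.1%). *Sdc3*, the syndecan of neurons and glial progenitors, was the most abundant member per length. *Sdc3* measured 2194, 1912 and 1648 CPM in the WT samples, 2068, 2089 and 2245 in the R206H samples, 1840.4, 1879 and 1638 in the WT samples with H3.1K27M and 1612, 1687 and 1506 in the R206H samples with H3.1K27M. The R206H samples without H3.1K27M were all above those with it, and the change was -0.40 ± 0.05 (edgeR adjusted p = 4.1e-05). In the WT background the groups overlapped and the change was -0.09 ± 0.15 (edgeR adjusted p = 0.7). *Sdc1*, known from epithelia and plasma cells, was the lowest syndecan. *Sdc1* measured 28.3, 13.5 and 14.4 CPM in the WT samples, 23.9, 22.3 and 24.3 in the R206H samples, 31.8, 32.4 and 30.3 in the WT samples with H3.1K27M and 32.3, 33.8 and 33.3 in the R206H samples with H3.1K27M. It rose by 0.51 ± 0.06 (edgeR adjusted p = 1.7e-05) with H3.1K27M in the R206H background, and the change in the WT background, 0.76 ± 0.29 (edgeR adjusted p = 0.1), was 1.19 (adjusted p = 1.6e-05) without WT replicate 1.

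*Sdc4*, the syndecan of focal adhesions, fell with H3.1K27M in the R206H background, and its difference between R206H and WT had opposite signs with and without H3.1K27M. *Sdc4* measured 88.7, 126 and 213 CPM in the WT samples, 92.1, 103 and 112 in the R206H samples, 74.4, 68.8 and 72.6 in the WT samples with H3.1K27M and 87.96, 74.6 and 84.9 in the R206H samples with H3.1K27M. Without H3.1K27M all samples exceeded those of either H3.1K27M group. The change with H3.1K27M was -0.30 ± 0.07 (edgeR adjusted p = 0.0044) with R206H and -0.98 ± 0.30 (edgeR adjusted p = 0.06) with WT, the latter -1.23 (adjusted p = 0.00073) without WT replicate 1. R206H changed it by 0.20 ± 0.06 (edgeR adjusted p = 0.031) with H3.1K27M and by -0.47 ± 0.30 (edgeR adjusted p = 0.94) without it, and the latter was -0.72 (adjusted p = 0.03) without WT replicate 1. The R206H call was lost without WT replicate 2 or 3 or R206H replicate 1 or 3, all with H3.1K27M (adjusted p from 0.059 to 0.15).

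*Cd44* was higher with R206H in both backgrounds. *Cd44* measured 145, 82.1 and 102 CPM in the WT samples, 187, 159 and 164 in the R206H samples, 148, 145 and 159 in the WT samples with H3.1K27M and 224, 206.5 and 244 in the R206H samples with H3.1K27M. R206H samples exceeded WT samples without overlap both with and without H3.1K27M. The change was 0.59 ± 0.06 (edgeR adjusted p = 1.9e-05) with H3.1K27M and 0.64 ± 0.21 (edgeR adjusted p = 0.94) without it, the latter 0.90 (adjusted p = 0.0029) without WT replicate 1. The interaction was -0.05 ± 0.23 (edgeR adjusted p = 0.95), so a difference between these effects was not detected with this spread. It was -0.30 (adjusted p = 0.11) without WT replicate 1 and -0.41 (adjusted p = 0.016) with voom and sample weights, which called it. H3.1K27M changed *Cd44* by 0.42 ± 0.07 (edgeR adjusted p = 0.0003) with R206H and 0.47 ± 0.20 (edgeR adjusted p = 0.14) with WT, the latter 0.72 (adjusted p = 0.00039) without WT replicate 1. *Fn1* measured 119.6, 83.05 and 134 CPM in the WT samples, 129, 81.6 and 136 in the R206H samples, 98.2, 125 and 117 in the WT samples with H3.1K27M and 145, 136 and 139 in the R206H samples with H3.1K27M. *Fn1* varied within the groups without H3.1K27M, and with H3.1K27M the R206H samples exceeded the WT samples by 0.31 ± 0.07 (edgeR adjusted p = 0.0068). H3.1K27M changed *Fn1* by 0.29 ± 0.14 (edgeR adjusted p = 0.094) with R206H.

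The 7 members with no call in any comparison in edgeR on all samples were *Itga5*, *Itga11*, *Itgb4*, *Itgb6*, *Lama1*, *Lamb3* and *Sdc2*. *Itga5*, the fibronectin receptor subunit, ran from 38.3 to 71.6 CPM over the 12 samples, and *Sdc2* from 110.2 to 181. Both were thus well measured, with log2 fold changes between -0.28 and 0.05 in the 4 comparisons. Without WT replicate 1, *Sdc2* was lower with H3.1K27M in the WT background (-0.43, adjusted p = 0.014). *Lama1*, the early embryonic alpha chain, ran from 1.52 to 5.55 CPM. Without that sample *Lama1* was higher with R206H in the absence of H3.1K27M (1.04, adjusted p = 0.0098) and with H3.1K27M in the WT background (1.33, adjusted p = 0.0025), and lower in the interaction (-1.34, adjusted p = 0.0035). Voom with sample weights also called *Itga5* and *Itgb4* higher with H3.1K27M in the WT background, where *Itgb4* had passed the filter on low counts only through the H3.1K27M samples, and *Itga11* higher and *Itga5* lower in the interaction. *Itga11* (0.245 to 0.807 CPM), *Itgb4* (0.332 to 0.911), the partner of *Itga6* in hemidesmosomes, and *Lamb3* (0.0519 to 0.807), the partner of *Lama3* in epidermal laminin, had at most 23 counts in a sample, so that the depth limited what could be detected in them.

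The interaction asked whether the change with R206H differed between the backgrounds, in 1 fit of all samples. It called 0 of 32 members in edgeR, with 2 at an unadjusted p under 0.05, *Itga10* and *Itga11*, where 0.0712% of all genes tested were called. DESeq2 called 0 members, where it called 0.628% of all genes. Without *ACVR1* WT replicate 1 it called 16 members, 5 higher and 11 lower, where 26.6% of all genes tested passed, and voom with sample weights called 20 (29.5%). The lower ones without that sample were *Lama5* (-1.81, adjusted p = 0.00045), *Lamb1* (-1.42, adjusted p = 0.00025), *Itgav* (-0.89, adjusted p = 0.00044), *Itga1*, *Itga4*, *Itga8*, *Lama1*, *Lama4*, *Lamc1*, *Sdc1* and *Sdc3*. The higher ones were *Itga2* (1.28, adjusted p = 0.0016), *Sdc4* (0.93, adjusted p = 0.0057), *Itga7*, *Itga9* and *Itga10*. This outcome thus depended on 1 sample.

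Genes whose products work beside the members were counted in the same comparisons. Of 12 basement membrane partners, 8 rose and 1 fell with H3.1K27M in the R206H background and 6 rose in the WT background, with median log2 fold changes of 0.69 and 0.48, where 56.5% and 23.0% of all genes tested passed. Without WT replicate 1 the WT background gave 6 higher and 2 lower (52.6% of all genes tested). *Bcam* measured 8.06, 9.804 and 8.75 CPM in the WT samples, 12.7, 12.05 and 10.8 in the R206H samples, 30.1, 31.3 and 28.9 in the WT samples with H3.1K27M and 32.8, 34.1 and 37.9 in the R206H samples with H3.1K27M. *Bcam*, a receptor of *Lama5*, changed by 1.77 ± 0.11 (edgeR adjusted p = 0.00076) with WT and 1.58 ± 0.08 (edgeR adjusted p = 2.3e-08) with R206H. *Ntn4* measured 13.2, 11.1 and 10.2 CPM in the WT samples, 10.9, 11.2 and 12.2 in the R206H samples, 37.1, 40.2 and 37.97 in the WT samples with H3.1K27M and 37.9, 40.01 and 41.4 in the R206H samples with H3.1K27M. *Ntn4*, a netrin that binds laminin chains, changed by 1.75 ± 0.12 (edgeR adjusted p = 0.00097) and 1.81 ± 0.07 (edgeR adjusted p = 2.7e-09). The collagen chains *Col4a1* (1.58 ± 0.11, edgeR adjusted p = 1.7e-07) and *Col4a2* (1.66 ± 0.18, edgeR adjusted p = 7.9e-06), the laminin linker *Nid1* (0.98 ± 0.06, edgeR adjusted p = 7.7e-08) and the laminin receptor *Dag1* (0.40 ± 0.04, edgeR adjusted p = 1.1e-05) were the others of the 6 with the smallest adjusted p in the R206H background. With R206H in the presence of H3.1K27M, 3 of the 12 were higher and 1 lower (11.4% and 8.95% of all genes tested).

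**Figure D5:**
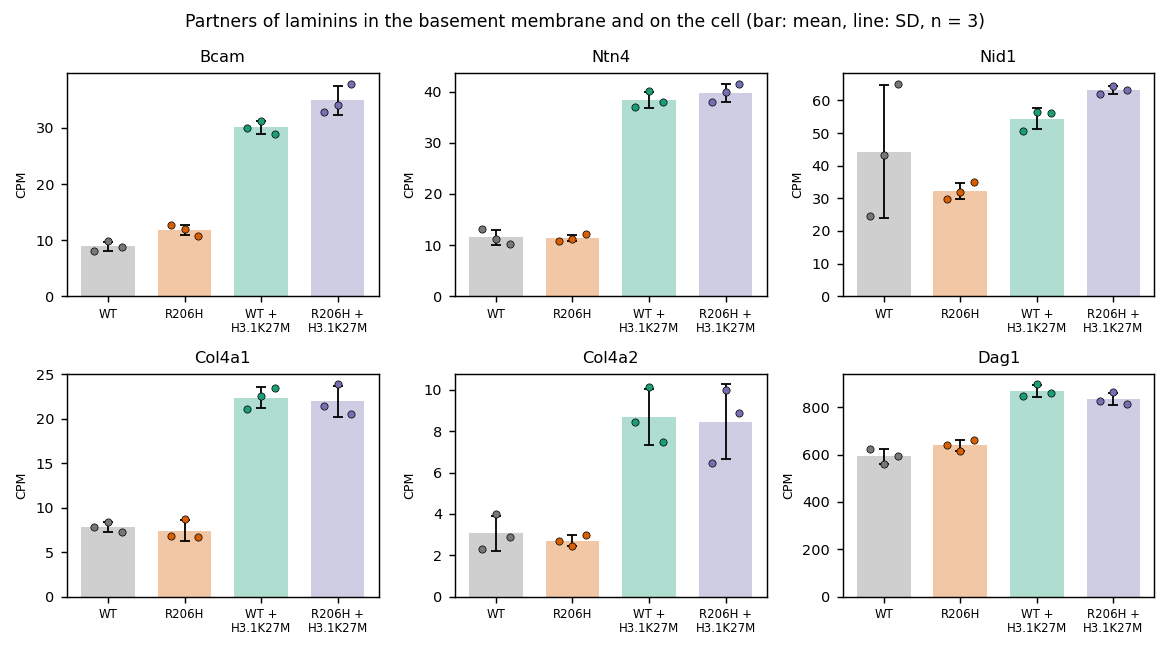
CPM in each sample for the 6 basement membrane partners with the smallest adjusted p for H3.1K27M in the R206H background, with bars for the mean and lines for the SD of 3 samples. The 6 samples with H3.1K27M lie above the 6 without it for *Bcam*, *Ntn4*, *Col4a1*, *Col4a2* and *Dag1*.

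Of 34 genes of the integrin adhesion complex, 32 were tested. With R206H in the presence of H3.1K27M 11 were higher and 2 lower (11.4% and 8.95% of all genes tested), among them the actin crosslinker *Actn1* (1.12 ± 0.06, edgeR adjusted p = 6.5e-08), the parvin *Parvb* (0.61 ± 0.05, edgeR adjusted p = 1.7e-06) and the scaffold *Nedd9* (0.51 ± 0.05, edgeR adjusted p = 1e-05). With H3.1K27M, 13 rose and 7 fell in the R206H background, where 56.5% of all genes tested passed, and 4 rose and 3 fell in the WT background, where 23.0% did. Both shares of the list were near those of all genes tested, as were the 9 higher and 10 lower without WT replicate 1 (52.6% of all genes tested). In the R206H background the tensin *Tns2* fell by the most among those named, -2.27 ± 0.11 (edgeR adjusted p = 9.7e-09), and the kinase *Ptk2b* rose by 1.79 ± 0.13 (edgeR adjusted p = 3e-07). With WT on all samples they changed by -2.02 ± 0.17 (edgeR adjusted p = 0.0016) and 2.18 ± 0.23 (edgeR adjusted p = 0.0026). *Parvb* was the gene of this list called in the interaction (0.49 ± 0.07, edgeR adjusted p = 0.048). *Ilk*, the kinase of this complex, was listed at 0 to 0.327 CPM, and its exons overlap those of *Taf10* and *Rrp8*, where reads shared by overlapping genes were dropped in the counting, and the part of this in its level was not tested. Of 16 partners of CD44 and the syndecans, 15 were tested. With R206H in the presence of H3.1K27M 4 were higher and 2 lower (11.4% and 8.95% of all genes tested), with the linker *Msn* (0.31 ± 0.04, edgeR adjusted p = 0.00011) and the hyaluronan synthase *Has2* (-0.73 ± 0.15, edgeR adjusted p = 0.0042) among them. With H3.1K27M 6 rose and 4 fell in the R206H background (56.5% of all genes tested) and 2 rose in the WT background (23.0%), or 8 rose and 3 fell without WT replicate 1 (52.6%). The 2 called on all samples were the linker *Ezr* (0.58 ± 0.08, edgeR adjusted p = 0.0065) and the hyaluronidase *Hyal1* (1.14 ± 0.15, edgeR adjusted p = 0.0052), which in the R206H background changed by 0.58 ± 0.04 (edgeR adjusted p = 2.8e-07) and 0.75 ± 0.08 (edgeR adjusted p = 6.6e-06).

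Markers of other cells moved with H3.1K27M as well, and their part in the results above was not tested. Values are given as the range with R206H against the range with both mutations, a comparison in which 56.5% of all genes tested passed, 29.1% higher and 27.4% lower. The summed 6 astrocyte markers ran from 4807 to 5779 CPM with R206H and 3692 to 3763 with both mutations, with 1 higher and 3 lower. The 9 microglia markers summed to 10.5 to 14.04 against 2.28 to 3.44 CPM, and 5 were tested. The 4 called lower (*Csf1r*, *Tyrobp*, *C1qa* and *C1qb*) had at most 0.132 CPM with both mutations and passed the filter on low counts only through the R206H samples, so they had to differ, and 1 was higher. The 9 pericyte and fibroblast markers summed to 84.2 to 106 against 131 to 150.4 CPM with 6 of 6 tested higher, among them *Col1a2*, which passed the filter only through the samples with both mutations, and most of this sum was *Cspg4*, which oligodendrocyte progenitors also express. The 6 Schwann cell markers summed to 170.1 to 188 against 364 to 390.4 CPM with 3 higher and 1 lower of 4, and the 5 ependymal markers to 40.4 to 43.8 against 74.8 to 82.5 with 2 higher of 3. The 7 oligodendrocyte lineage markers summed to 2717 to 2937 against 3379 to 3533 CPM, 4 higher and 2 lower, and the 6 neuron markers to 39.2 to 44.5 against 50.2 to 52.1, 4 higher, with *Rbfox3* through the same filter, and 1 lower. The 7 endothelial markers summed to 8.74 to 13.002 and 6.59 to 8.75 CPM, and the defining marker *Cldn5* had 0 counts in all samples but 1. The 2 tested were *Kdr* (1.28 ± 0.26, edgeR adjusted p = 0.0012) and *Flt1* (-1.44 ± 0.18, edgeR adjusted p = 2.7e-05). Of the 8 neural progenitor markers 2 were higher and 3 lower. In the WT background, where 23.0% of all genes tested passed, 6 of 7 microglia markers tested were lower, and all 6 passed the filter only through the WT samples. In the same comparison 5 of 7 pericyte and fibroblast markers and 2 of 4 ependymal markers tested were higher, with *Col1a2* and both ependymal markers (*Ccdc153* and *Rarres2*) passing the filter only through the H3.1K27M samples. Of 4 Schwann cell markers 2 were higher and 1 lower, of 6 neuron markers 1 was higher and 1 lower, 2 of 8 neural progenitor, 1 of 6 astrocyte and 1 of 7 oligodendrocyte lineage markers were lower, and 0 of 2 endothelial markers were called. Without WT replicate 1 (52.6% of all genes tested) 4 of 6 astrocyte and 3 of 6 neuron markers were lower, and 1 of each was higher. In this refit 5 of 7 pericyte and fibroblast markers were higher, and 6 of 7 microglia and 1 of 2 endothelial markers lower. Schwann cell and ependymal markers each had 3 higher and 1 lower of 4. Oligodendrocyte lineage markers had 2 higher and 3 lower of 7, and neural progenitor markers 2 and 3 of 8. The limit from the filter on low counts applies here too. With R206H in the presence of H3.1K27M, where 20.3% of all genes tested passed, 5 of 8 neural progenitor markers were higher and 1 lower, and 5 of 7 oligodendrocyte lineage markers were lower. In the same comparison 3 of 6 neuron markers were higher, 3 of 8 pericyte and fibroblast markers tested were higher and 1 lower, 2 of 6 astrocyte markers were higher and 1 lower, and 2 of 4 Schwann cell, 1 of 4 endothelial, 1 of 4 ependymal and 1 of 1 microglia markers tested were higher. Between R206H and WT without H3.1K27M, 0 markers of any list were called on all samples. Without WT replicate 1 (23.1% of all genes tested) 5 of 6 astrocyte and 6 of 8 microglia markers were lower. So were 2 of 5 neuron and 3 of 7 oligodendrocyte lineage markers. Of 8 neural progenitor markers 3 were higher and 2 lower. Of Schwann cell markers 2 of 4 were higher, as were 1 of 2 endothelial, 1 of 3 ependymal and 0 of 5 pericyte and fibroblast markers. The part of these in the R206H differences was not tested.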

How the data were processed

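RNAseq counts were analysed from 12 samples in 4 groups of 3, grouped by the sample labels. In Galaxy, the authors mapped the read pairs with STAR 2.6.0b-1 to mm10 and ran HTSeq-count on Ensembl genes (unstranded, union mode, minimum alignment quality 10, ambiguous reads dropped). They deposited raw read counts per gene. Reads that fall in 2 overlapping genes are lost by this counting, and without strand a gene and its antisense partner cannot be told apart. Symbols, positions and exon lengths came from GENCODE M21, in which 54495 of the 54532 identifiers were found.

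Each pair of groups was fitted on its own samples with edgeR 4.0.16 (quasi-likelihood, TMM scaling) in R 4.3.3, over all genes with a mean scaled count of at least 10, with Benjamini-Hochberg adjustment over all genes tested and a threshold of 0.05. The interaction used all 12 samples. CPM are counts per 1000000 of the TMM-scaled total. Alternatives were DESeq2 1.42.0, limma 3.58.1 voom with sample weights, other scaling and filters, a replicate block, 1 fit of all samples and leaving out each sample. DESeq2 without *ACVR1* WT replicate 1 was chosen after seeing the data. The scripts were tested on simulated data. The members, the 4 lists of linked genes and the 9 marker lists were chosen with earlier results of these data known. From these lists, 1 gene was left out and is not reported here. Values in every sample are given for each member past the threshold in at least 1 test and for the most abundant member of each class, and genes of a list are named among its 6 smallest adjusted p. Replicates differed beyond sampling noise, so each was counted as 1 library. Counting error was small for most members, was not for *Itga11*, *Itgb4*, *Lamb3* and *Lamc3*, and 3 samples per group limit the precision.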

Additional observations from a re-analysis of the deposited data

How the results depend on the processing

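With DESeq2 size factors, no filter or at least 10 counts in every sample, the number of members past the threshold stayed within 1.5 times the values given above in all 5 tests. DESeq2 gave 13 members for H3.1K27M with *ACVR1* WT, against 8, and no other such change. voom with sample weights, which gave *ACVR1* WT replicate 1 a low weight, called 18 members for R206H without H3.1K27M, 20 for the interaction and 26 for H3.1K27M with *ACVR1* WT. The single fit of all 12 samples called 2 for R206H with H3.1K27M, 15 for H3.1K27M with *ACVR1* WT and 12 for H3.1K27M with *ACVR1* R206H. It uses 1 estimate of the spread for all groups, and the cause was not tested. Leaving out each sample gave 0 to 17 members for R206H without H3.1K27M, 10 to 17 with it, 1 to 23 for H3.1K27M with *ACVR1* WT, 21 to 23 with *ACVR1* R206H, and 0 to 16 for the interaction. The values of 17, 23 and 16 were those without *ACVR1* WT replicate 1. DESeq2 with the same sample left out, a setting chosen after seeing the data, gave 18, 23 and 15. Where no share of all genes is given, the counts in this section describe the members only. Over 607 refits of the 47 calls of single members, 530 stayed past the threshold, 77 did not, and 0 changed direction. Another scaling moved the median of all genes by at most 0.0038 on the log2 scale.

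With the replicate number as a block, the members called were 0 for R206H without H3.1K27M and 17 with it, 6 for H3.1K27M with *ACVR1* WT and 24 with *ACVR1* R206H, and 0 for the interaction. The labels do not tie equal numbers together, and the correlation of deviations between same-numbered samples ran from -0.14 to 0.42, so the numbers were not taken as pairs. A design of 3 against 3, and few counts in *Itga11*, *Itgb4*, *Lamb3* and *Lamc3*, limit what could be detected.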

Other observations

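The 8 integrin subunits of leukocytes and platelets, which are not among the members, were low. Their summed level was 3.40 to 8.75 CPM over the 12 samples, of which the platelet subunit *Itga2b* made up 1.80 to 5.22 CPM, and *Itgad* had 0 counts in 3 of the 4 groups. Of these, 2 had enough counts to be tested in each comparison. *Itga2b* was higher with R206H in the presence of H3.1K27M (log2 fold change 0.63 ± 0.20, edgeR adjusted p = 0.041), and the leukocyte subunit *Itgb2* was lower with H3.1K27M in the R206H background (-0.98 ± 0.34, edgeR adjusted p = 0.026).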
